A study of Rattus norvegicus with 74 samples.

Results

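A set of 9 genes of thyroid hormone handling and response was followed in the livers of young rats given flame retardants or other inducing compounds: the serum carriers Ttr and Serpina7, the deiodinase Dio1, the receptors Thrb and Thra, and the hormone-raised genes Me1, Thrsp, Klf9 and Hr. They were chosen by name for this question, with earlier results of these data known. Every probe set that is annotated to a single one of them was taken, which gave 9 of 14217 genes and 19 of 20826 single-gene probe sets. The question was whether these livers carry the marks of lowered thyroid hormone action. The series holds 74 expression arrays of liver from Wistar Han rats (Crl:WI (Han)) in 15 groups, with 4 or 5 arrays a group. Pups were studied at postnatal day 22. The dosed groups received BDE-47 at 0.1, 15 or 50 mg/kg, DE-71 at 0.1, 15 or 50 mg/kg, phenobarbital at 5 or 45 mg/kg, or PCB126 at 10, 50 or 250 mg/kg as labelled, and each agent had its own group at 0 mg/kg. BDE-47 is a single polybrominated diphenyl ether and DE-71 a commercial mixture of such ethers that contains it; phenobarbital is the classic inducer acting through the nuclear receptor CAR, and PCB126 a polychlorinated biphenyl acting through the aryl hydrocarbon receptor. All animals, the controls too, were dosed by oral gavage; for BDE-47 and DE-71 the dams were dosed from gestation day 6 to 21 and the pups from postnatal day 12 to 21. The dosing days of the phenobarbital and PCB126 groups, the vehicle, the litters and the sex are not given in the labels, and the PCB126 dose unit could not be checked.

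The thyroid releases mainly thyroxine, which circulates bound to proteins made in the liver, among them transthyretin and thyroxine-binding globulin. Inside cells deiodinases remove iodine to make the active hormone triiodothyronine or to inactivate it, and the active hormone works through the nuclear receptors encoded by Thra and Thrb, of which Thrb is the main form in liver. When hormone action falls in rat liver, transcripts that the hormone raises, such as Dio1, Thrsp and Me1, are known to fall. The liver also clears the hormone, by conjugation to glucuronic acid or sulfate and export into bile.

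Values below are log2 values from the deposited normalization, so that a difference of 1 is a 2-fold difference. Arrays of 1 group that were near-identical were averaged: BDE-47 0 mg/kg replicates 3 and 4, and DE-71 15 mg/kg replicates 1 and 2, which left 72 samples. The arrays of BDE-47 15 mg/kg replicate 3 and BDE-47 50 mg/kg replicate 3 were also near-identical, as were those of DE-71 15 mg/kg replicate 5 and DE-71 50 mg/kg replicate 4. They carry different dose labels and stayed in the fit. For the brightest probe sets of called members and the second Thra probe set, called values are given without them as well. Those of the second Me1 probe set and of genes outside the 9 are given only with them. The sample labelled PCB126 50 mg/kg replicate 2 stood apart, with Xist at 9.89 against 2.61 to 3.45 in the other 71 samples. The Y-linked gene Eif2s3y was at 2.45 in it, against 8.22 to 9.47 in the others, the pattern of a female among males. Leaving it out called 0 members at 50 mg/kg PCB126, as with it. The sample labelled DE-71 0.1 mg/kg replicate 2 had Cyp2c7, a cytochrome P450 gene, at 12.88 against 7.39 to 8.96 in the other samples of its group. Nothing in the labels says that the samples of a group came from separate litters, so the p-values speak of the variation among these arrays, which may be technical.

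Of the 9 genes, only Me1, Serpina7 and Thrb were called in any dosed group. A gene was called when its brightest probe set passed an adjusted p of 0.05 in limma, with Benjamini-Hochberg adjustment over all probe sets. At 50 mg/kg DE-71, 1 member rose (Me1) and 2 fell (Serpina7 and Thrb), where 4.57% of all genes were called higher and 4.76% lower. With 50 mg/kg BDE-47, 1 member rose (Me1) and 0 fell, where 2.07% of genes were higher and 1.46% lower. At 45 mg/kg phenobarbital, 1 rose (Me1) and 0 fell, against 1.28% higher and 1.13% lower. At 15 mg/kg DE-71, 1 rose (Me1) and 0 fell, against 0.83% higher and 0.19% lower.

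In the other 7 dosed groups 0 members passed in limma, and 0 or 1 of the 9 had an unadjusted p under 0.05 (455, 1593, 908, 936, 378, 800 and 821 of all genes at BDE-47 0.1 and 15, DE-71 0.1, phenobarbital 5 and PCB126 10, 50 and 250 mg/kg). The background there was 0.556% of genes higher and 0.176% lower at 15 mg/kg BDE-47, and 0.0703% higher and 0.0211% lower at 5 mg/kg phenobarbital. It was 0.0422% higher and 0% lower at 250 mg/kg PCB126, and 0% in either direction at 0.1 mg/kg of BDE-47 or DE-71 and at 10 or 50 mg/kg PCB126. The median response of the 9 genes was -0.05 at 50 mg/kg DE-71, -0.01 at 50 mg/kg BDE-47 and -0.05 at 45 mg/kg phenobarbital, where the median of all genes was 0.002, -0.016 and -0.022. At an unadjusted p under 0.05, 3 members were past the threshold in each of these groups, against 3441 genes in all at 50 mg/kg DE-71, 2231 at 50 mg/kg BDE-47 and 1813 at 45 mg/kg phenobarbital.

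**Figure D1:**
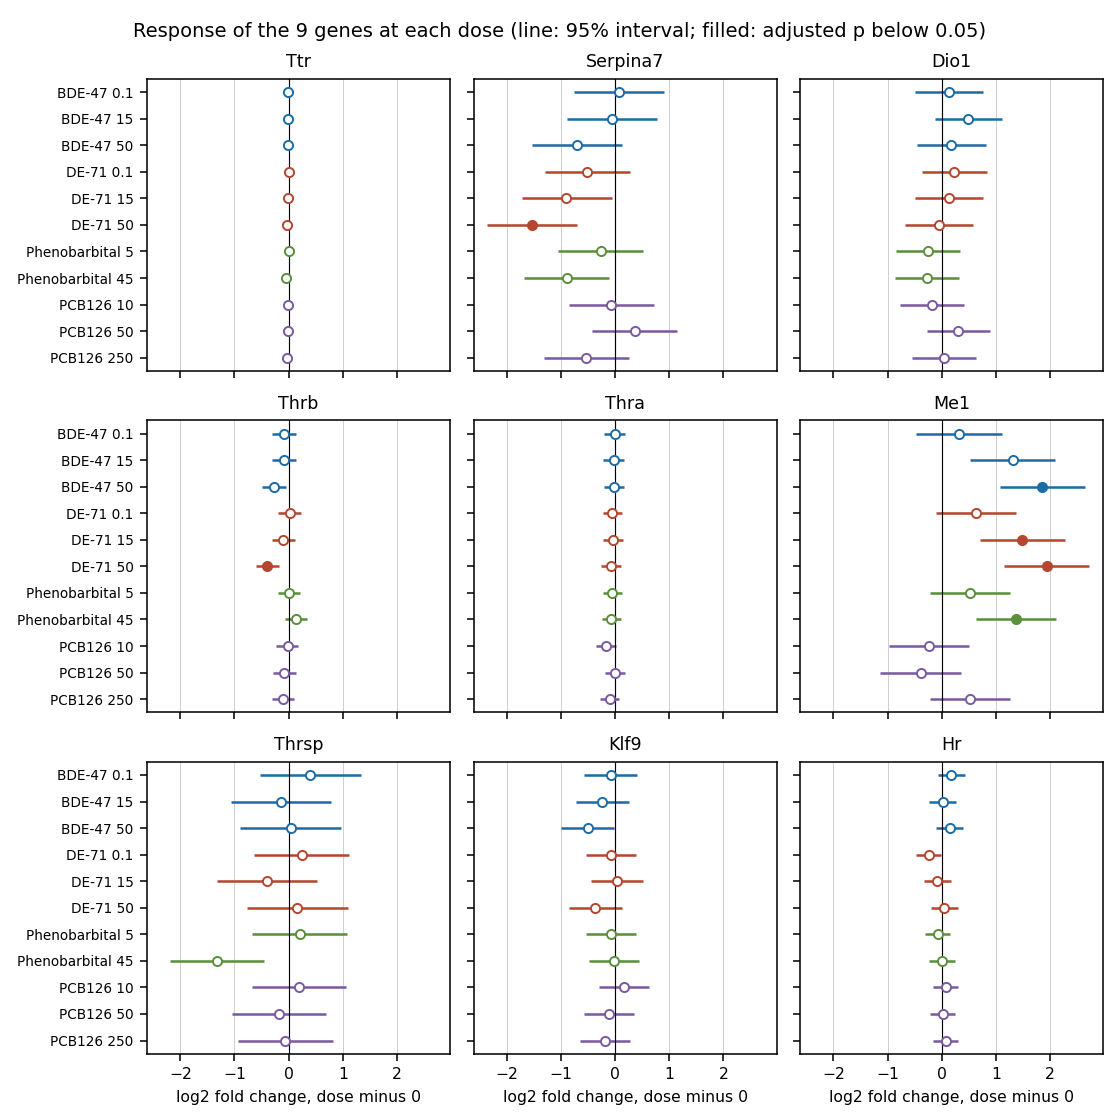
Log2 fold change of each of the 9 genes (brightest probe set), dose minus 0 mg/kg of the same agent, with its 95% interval; rows are agents and doses in mg/kg, and filled points passed an adjusted p of 0.05. Me1 lies to the right of 0 at the upper BDE-47, DE-71 and phenobarbital doses, reaching 1.94, and Serpina7 to the left at 50 mg/kg DE-71 (-1.53), while Ttr stays between -0.05 and 0.01.

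The promoters of the 3 genes that were called are shown for their differing makeup and for 2 short motifs. The windows are from RefSeq on GRCr8, run 5′ to 3′ on the gene's strand, and hold 250 bases before to 50 after the annotated start. They lie at chr8:96540195-96540494 for Me1, chrX:107457632-107457931 for Serpina7 and chr15:10461397-10461696 for Thrb, each on the minus strand, and capitals mark matches to TGACNNNGC, the core of the antioxidant response element.
Me1: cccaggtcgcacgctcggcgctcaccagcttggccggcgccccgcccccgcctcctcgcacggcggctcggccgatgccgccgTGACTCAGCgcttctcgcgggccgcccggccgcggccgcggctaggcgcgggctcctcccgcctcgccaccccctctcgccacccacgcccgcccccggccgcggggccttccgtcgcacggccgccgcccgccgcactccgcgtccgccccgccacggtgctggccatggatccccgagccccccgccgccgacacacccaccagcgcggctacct
Serpina7: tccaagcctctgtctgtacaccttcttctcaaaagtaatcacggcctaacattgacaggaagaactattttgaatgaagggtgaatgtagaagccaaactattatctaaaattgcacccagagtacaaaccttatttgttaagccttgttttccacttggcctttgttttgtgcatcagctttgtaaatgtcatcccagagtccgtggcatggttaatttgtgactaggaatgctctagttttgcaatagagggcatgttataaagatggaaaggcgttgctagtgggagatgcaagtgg
Thrb: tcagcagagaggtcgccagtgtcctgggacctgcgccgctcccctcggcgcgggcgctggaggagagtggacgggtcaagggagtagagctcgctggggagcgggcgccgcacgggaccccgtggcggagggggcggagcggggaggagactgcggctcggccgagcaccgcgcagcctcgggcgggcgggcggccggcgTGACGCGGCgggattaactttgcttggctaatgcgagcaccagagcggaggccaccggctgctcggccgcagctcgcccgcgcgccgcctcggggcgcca
The Serpina7 window held 41.0% G and C, against 81.7% in Me1 and 76.0% in Thrb. Of the 9 genes, 8 were matched to the promoter table, with 9 windows between them, and each motif was searched on both strands in all 33469 windows. TGACNNNGC was in 12.1% of all windows and in those of Me1 (TGACTCAGC, 167 bases before the start) and Thrb (TGACGCGGC, 50 before). GCGTG, the core bound by the aryl hydrocarbon receptor, was in 29.7% of windows and in those of Klf9, Me1 and Thrb; in Thrb it overlaps the TGACNNNGC match. AGGTCA, the hexamer bound by thyroid hormone receptors, was in 16.2% of windows and in 0 of the 9, and the direct repeat of AGGTCA, any 4 bases and AGGTCA was in 0.00598% and in 0 of the 9. A match is a run of letters, not a bound site, and a site outside these windows would not be seen.

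Among the carriers, Serpina7 fell at 50 mg/kg DE-71 and Ttr passed in no comparison. Serpina7 encodes thyroxine-binding globulin, a serum carrier that the rat liver makes mainly in early life. It is not among the hormone-raised genes of the set, and how thyroid hormone acts on it in these livers was not tested. Serpina7 was at 9.83, 8.85, 10.64 and 7.40 in the 4 livers at 50 mg/kg DE-71, against 10.08, 11.33, 11.18, 10.93 and 10.02 at 0 mg/kg. Of the 4 dosed livers 3 lay below every control, and replicate 4 lay among the controls. The difference was -1.53 ± 0.42 (SE; 95% interval -2.36 to -0.70), a fall to 0.346 of the control level, with an adjusted p of 0.014 in limma. Without replicate 5, the lowest at 7.40, the difference was -0.94 with an adjusted p of 0.17, and a fit of only the 2 groups gave an adjusted p of 0.29. Without the near-identical arrays it was -2.02, with an adjusted p of 8.3e-04.

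The lower doses of DE-71 gave Serpina7 values on the same side that did not pass. At 15 mg/kg DE-71 it was at 10.18, 9.39, 9.07 and 10.61, against the same controls, a difference of -0.90 (interval -1.73 to -0.06, adjusted p = 0.49 in limma). At 0.1 mg/kg DE-71 the difference was -0.52. All 4 livers at 15 mg/kg lay below the control mean of 10.71, but 2 of them lay within the range of the controls. In livers given 50 mg/kg BDE-47 the values were 8.47, 9.87, 9.68, 9.62 and 8.73, against 10.42, 10.29, 9.68 and 9.52 at 0 mg/kg, a difference of -0.70 with an adjusted p of 0.5 in limma. With 45 mg/kg phenobarbital they were 10.79, 9.65, 9.89, 9.78 and 10.20, against 10.47, 10.87, 11.03, 11.45 and 10.96 at 0 mg/kg, a difference of -0.89 with an adjusted p of 0.34 in limma. In both groups all 5 dosed livers lay below the control mean, and the groups overlapped. PCB126 gave -0.08, 0.36 and -0.54 at 10, 50 and 250 mg/kg.

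Ttr encodes transthyretin, the main thyroxine carrier of adult rat serum. It averaged 14.10 over all samples, rank 6 of the 20826 probe sets, and ran only from 13.96 to 14.31. It was at 14.05 ± 0.01 at 50 mg/kg DE-71 and 14.08 ± 0.03 at 0 mg/kg (SD, n = 4 and 5). Its differences lay between -0.05 and 0.01, and the lowest adjusted p in limma was 0.75. The brightest value on these arrays was 14.94, and whether the Ttr probe set was saturated was not tested. Alb, the albumin gene that encodes another carrier, differed by -0.01 at 50 mg/kg DE-71 and by 0.03 at 50 mg/kg BDE-47.

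Markers of hepatocytes, the cells that make both carriers, were set beside these values. Ttr is itself among these markers, so its own value is part of their average. The 7 measured hepatocyte markers averaged 13.12 to 13.47 over the livers at 50 mg/kg DE-71, against 13.40 to 13.55 at 0 mg/kg. Of the 7, 1 fell, where 4.76% of all genes were lower: Cps1, a urea cycle enzyme, by 0.47 (adjusted p = 1.4e-04 in limma). Its part in the Serpina7 result was not tested. In whole liver, fewer cells of a type and less RNA per cell cannot be told apart. The other sources a liver piece could hold were measured too: 0 of 5 lymphocyte, 0 of 3 neutrophil, 0 of 4 erythroid and 0 of 8 pancreas and gut markers passed at 50 mg/kg DE-71. The 3 neutrophil markers averaged 5.17 to 7.75 over the livers at 50 mg/kg DE-71, against 4.99 to 6.59 at 0 mg/kg. Their part in the members' values was not tested. At 50 mg/kg DE-71, 1 of 7 stellate cell markers fell (Lrat, by 0.58), 1 of 5 endothelial markers fell (Kdr, by 0.49) and 1 of 4 bile duct markers rose (Epcam, by 1.28). Of all genes, 4.57% were called higher and 4.76% lower in that comparison. Epcam also rose at 15 mg/kg DE-71 (by 0.99), 15 and 50 mg/kg BDE-47 (by 0.91 and 1.35) and 45 mg/kg phenobarbital (by 0.74), and its part in the members' values was not tested.

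**Figure D2:**
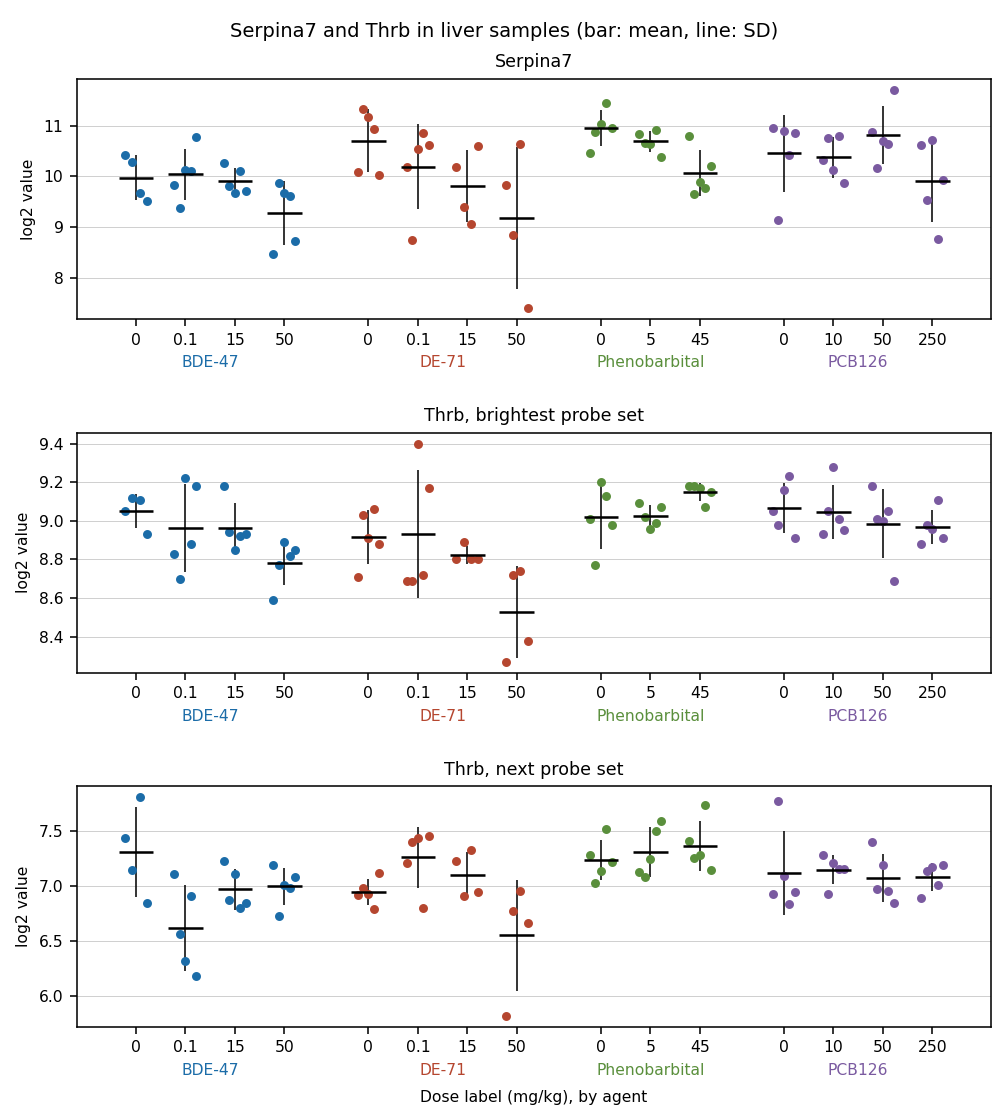
Log2 values of Serpina7 and of the 2 brighter Thrb probe sets in each liver sample (points), by agent and dose in mg/kg, with group means (bars) and SD (lines). Serpina7 reaches its lowest value, 7.40, in a 50 mg/kg DE-71 liver, and the brightest Thrb probe set its lowest, 8.27, in another of that group.

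Dio1, which encodes the type of deiodinase that liver uses to activate and clear the hormone and which triiodothyronine itself raises, passed in none of the 11 comparisons. It was at 7.80, 7.17, 6.69 and 7.29 at 50 mg/kg DE-71, against 7.26, 7.35, 7.35, 6.59 and 7.89 at 0 mg/kg, a difference of -0.05 (interval -0.68 to 0.58). At 50 mg/kg BDE-47 it was at 6.54, 6.89, 7.48, 7.99 and 6.61, against 7.05, 7.01, 6.61 and 7.02 at 0 mg/kg, a difference of 0.18 (interval -0.45 to 0.81). In livers given 45 mg/kg phenobarbital it was at 7.72, 7.02, 6.48, 6.96 and 8.09, against 7.04, 6.98, 7.96, 7.55 and 8.10 at 0 mg/kg, a difference of -0.27 (interval -0.86 to 0.32). In each pair the groups overlapped.

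Over all comparisons the Dio1 difference lay between -0.27 and 0.49, the upper value at 15 mg/kg BDE-47, where 5 of 5 livers were above the control mean. The lowest adjusted p in limma was 0.65. The intervals reached down to -0.86 and up to 1.12, at 45 mg/kg phenobarbital for the lower bound and 15 mg/kg BDE-47 for the upper. The other deiodinase genes, Dio2 and Dio3, differed by 0.13 and 0.16 at 50 mg/kg DE-71 and by -0.03 and -0.20 at 50 mg/kg BDE-47, and neither passed.

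Of the receptors, Thrb fell slightly at 50 mg/kg DE-71. Its brightest probe set was at 8.27, 8.72, 8.74 and 8.38, against 8.71, 9.03, 8.91, 9.06 and 8.88 at 0 mg/kg. Of the dosed livers 2 lay below every control, and the other two were just above the lowest one. The difference was -0.39 ± 0.11 (SE; interval -0.60 to -0.17), a fall to 0.764 of the control level, with an adjusted p of 0.017 in limma. It was -0.30 (adjusted p = 0.2) without replicate 2, -0.34 (adjusted p = 0.069) without replicate 5 and -0.46 (adjusted p = 0.0071) without the near-identical arrays, and a fit of only the 2 groups gave an adjusted p of 0.24.

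The same Thrb probe set was also lower at 50 mg/kg BDE-47 but did not pass. It was at 8.59, 8.77, 8.89, 8.82 and 8.85, against 9.05, 9.12, 9.11 and 8.93 at 0 mg/kg, a difference of -0.27 (interval -0.49 to -0.05, adjusted p = 0.2 in limma). The 2 groups did not overlap. At 15 mg/kg the differences were -0.09 for BDE-47 and -0.10 for DE-71. At 45 mg/kg phenobarbital the difference was 0.13, and for PCB126 it lay between -0.10 and -0.02.

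The next Thrb probe set correlated with the brightest at only 0.32 over the 72 samples. It was at 5.82, 6.77, 6.96 and 6.66 at 50 mg/kg DE-71, against 6.92, 6.98, 6.93, 6.79 and 7.12 at 0 mg/kg, a difference of -0.40 that did not pass (adjusted p = 0.17 in limma). Its largest difference was at the lowest BDE-47 dose, where it was at 7.11, 6.56, 6.32, 6.91 and 6.18, against 7.44, 7.15, 7.81 and 6.85 at 0 mg/kg. That difference, -0.70, had an unadjusted p of 2.1e-04 and an adjusted p of 0.86 in limma, and was followed by -0.34 and -0.31 at 15 and 50 mg/kg. The remaining Thrb probe sets averaged 3.88 and 3.24, the first of them brighter than only 23.9% of probe sets, and 0 of their differences passed.

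Thra, which encodes the other receptor and is more used outside liver, was dim, with its 2 brighter probe sets averaging 5.48 and 5.47. The brightest did not pass in any comparison, with differences between -0.17 and 0.00. The second fell at 50 mg/kg BDE-47, where it was at 5.12, 4.83, 5.17, 5.21 and 5.07, against 5.54, 5.80, 5.74 and 5.35 at 0 mg/kg. The groups did not overlap, and the difference was -0.53 ± 0.13 (SE; interval -0.78 to -0.28) with an adjusted p of 0.0074 in limma. Without BDE-47 0 mg/kg replicate 2 it was -0.46, with an adjusted p of 0.057, and without the near-identical arrays -0.55, with an adjusted p of 0.012.

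The brightest Thra probe set was at 5.45 ± 0.13 and 5.46 ± 0.14 in these same 2 groups (SD, n = 5 and 4), a difference of -0.02. The 2 probe sets correlated at 0.22 over the 72 samples, so the gene's change rests on 1 of its probe sets. With 50 mg/kg DE-71 the second one differed by -0.04 (interval -0.29 to 0.21). The remaining Thra probe set averaged 2.50, near the bottom of the scale, and did not pass.

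In the same 50 mg/kg BDE-47 livers, 5 of 7 Kupffer cell and macrophage markers fell, where 1.46% of all genes were lower: Clec4f by 0.80, Csf1r by 0.68, Cd163 by 0.62, Cd68 by 0.60 and C1qa by 0.60. The 7 averaged 7.61 to 8.12 over the livers at 50 mg/kg BDE-47, against 8.30 to 8.76 at 0 mg/kg. Clec4f, the most specific of them, averaged 9.24 there, against 10.03 at 0 mg/kg. The part of these markers in the Thra and Thrb values was not tested. In livers given 50 mg/kg DE-71, 0 of the 7 passed.

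Me1, which encodes the cytosolic malic enzyme that supplies NADPH for fatty acid synthesis and is a textbook hormone-raised gene of rat liver, was higher, not lower. At 50 mg/kg BDE-47 its brighter probe set was at 9.94, 9.79, 9.55, 9.83 and 9.83, against 8.44, 7.72, 7.32 and 8.23 at 0 mg/kg. With 50 mg/kg DE-71 it was at 9.75, 9.42, 8.78 and 10.36, against 8.16, 7.23, 7.89, 7.09 and 7.83 at 0 mg/kg. In both pairs every dosed liver was above every control. Me1 rose 3.62-fold at 50 mg/kg BDE-47 (log2 difference 1.86 ± 0.39 SE, interval 1.07 to 2.65, adjusted p = 0.0019 in limma). It rose 3.83-fold at 50 mg/kg DE-71 (1.94 ± 0.39 SE, interval 1.15 to 2.73, adjusted p = 6.5e-04). Both calls held in all 9 fits that left out 1 sample, with differences of 1.66 to 2.03 for BDE-47 and 1.68 to 2.21 for DE-71. Without the near-identical arrays the differences were 1.92 and 2.21, with adjusted p of 0.0035 and 3.0e-04 in limma.

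At 15 mg/kg Me1 was intermediate. It was at 9.17, 9.32, 9.50, 9.31 and 8.91 at 15 mg/kg BDE-47, all above the 4 controls, a difference of 1.31 (interval 0.52 to 2.10) that did not pass (adjusted p = 0.13 in limma). It was at 9.91, 8.72, 8.85 and 9.03 at 15 mg/kg DE-71, all above the 5 controls, and rose by 1.49 (interval 0.70 to 2.28, adjusted p = 0.048 in limma). That call was narrow: it was lost without DE-71 0 mg/kg replicate 2, 3, 4 or 5 and without DE-71 15 mg/kg replicate 1 and 2, 4 or 5, with differences of 1.23 to 1.62 and an adjusted p of up to 0.33. Without the near-identical arrays it was 1.52 with an adjusted p of 0.096. The call was also lost with a replicate block, a further quantile normalization or other variance estimates, and in a fit of only the groups compared.

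The second Me1 probe set moved with the first, at a correlation of 0.93 over the 72 samples. It rose by 1.93 at 50 mg/kg BDE-47, by 2.22 at 50 mg/kg DE-71 and by 1.84 at 15 mg/kg DE-71, with adjusted p of 2.6e-04, 1.4e-05 and 0.0014 in limma. At 15 mg/kg BDE-47 it differed by 1.37, with an adjusted p of 0.053. Its calls at 50 mg/kg of both agents and at 15 mg/kg DE-71 held in 9 of 9 fits that left out 1 sample.

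Single livers at 0.1 mg/kg also had high Me1. At 0.1 mg/kg DE-71 the brighter probe set was at 7.81, 9.47, 7.28, 9.43 and 7.41, and at 0.1 mg/kg BDE-47 at 7.42, 8.24, 10.21, 8.06 and 7.30. Replicates 2 and 4 of DE-71 and replicate 3 of BDE-47 were above all controls of their agent, and the others were not. The differences, 0.64 for DE-71 and 0.32 for BDE-47, did not pass, and 0 of the 9 genes passed at 0.1 mg/kg with or without any 1 sample. The DE-71 replicate with 9.47 is the one that stood out for Cyp2c7, and it also had Sult1e1 at 9.47 against 3.26 to 3.83 in the other samples of its group.

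Me1 also rose with phenobarbital, and it did not pass with PCB126. With 45 mg/kg phenobarbital the brighter probe set was at 8.98, 9.56, 8.96, 8.78 and 9.92, against 7.82, 7.35, 8.08, 7.73 and 8.36 at 0 mg/kg. The groups did not overlap, and the rise was 1.37 ± 0.37 (SE; interval 0.63 to 2.12, adjusted p = 0.031 in limma), or 2.59-fold. The call was lost without phenobarbital 0 mg/kg replicate 1, 2 or 4 and without phenobarbital 45 mg/kg replicate 2 or 5, with an adjusted p of up to 0.14 and a difference of at least 1.20. The second probe set rose by 1.44 (adjusted p = 0.0085) and kept its call in 10 of 10 such fits. A fit with a replicate block lost the call of the brighter probe set and kept that of the second. At 250 mg/kg PCB126 Me1 was at 8.20, 8.22, 8.59, 8.61 and 8.35, against 7.23, 7.89, 8.50, 8.18 and 7.52 at 0 mg/kg, a difference of 0.53 (interval -0.21 to 1.27, adjusted p = 0.91 in limma). At 10 and 50 mg/kg PCB126 the differences were -0.24 and -0.39.

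**Figure D3:**
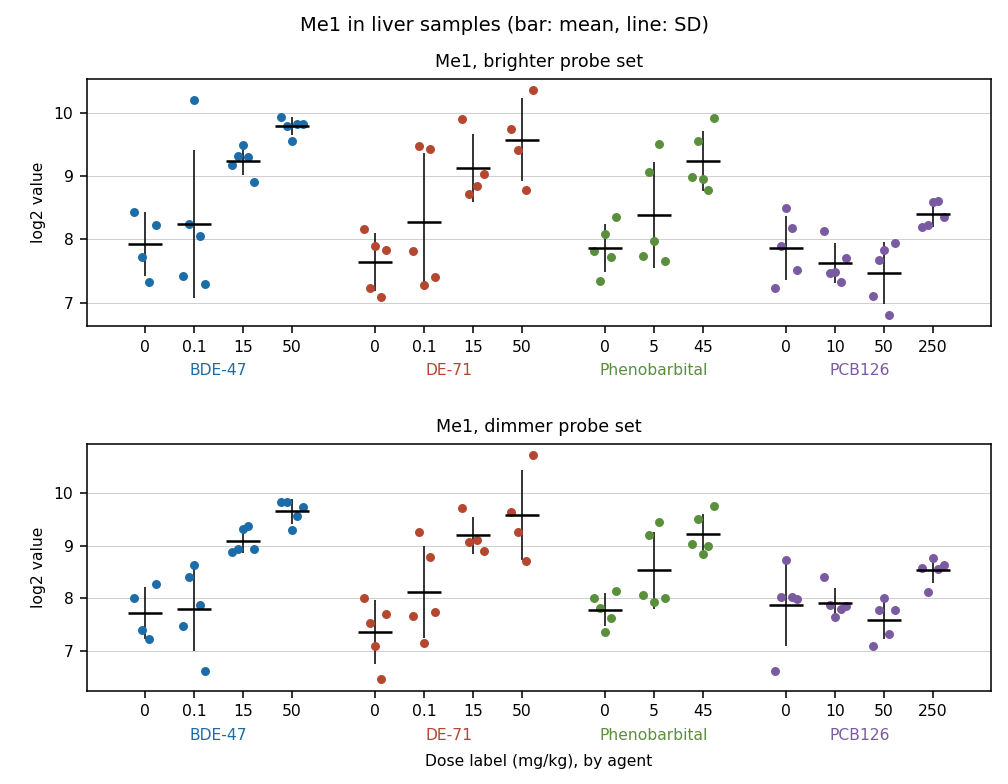
Log2 values of both Me1 probe sets in each liver sample (points), by agent and dose in mg/kg, with group means (bars) and SD (lines). In the upper panel the 5 livers at 50 mg/kg BDE-47 lie between 9.55 and 9.94, above all BDE-47 controls (7.32 to 8.44), while the PCB126 groups stay between 6.81 and 8.61.

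Thrsp, which encodes the lipogenic protein Spot 14 and responds within hours to thyroid hormone and to carbohydrate, passed in no comparison. In livers given 50 mg/kg DE-71 its brightest probe set was at 9.79, 10.71, 9.14 and 10.76, against 10.09, 8.92, 10.31, 10.12 and 10.24 at 0 mg/kg, a difference of 0.16 (interval -0.76 to 1.09). At 50 mg/kg BDE-47 it was at 10.46, 10.53, 9.42, 9.02 and 9.85, against 9.44, 9.93, 10.14 and 9.76 at 0 mg/kg, a difference of 0.04 (interval -0.89 to 0.97). In both pairs the groups overlapped.

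The lowest group mean of Thrsp was at 45 mg/kg phenobarbital, where it was at 8.16, 8.31, 8.68, 9.53 and 7.26, against 10.24, 9.82, 10.17, 8.74 and 9.59 at 0 mg/kg. Of these 5 livers 4 were below every control. The difference was -1.32 (interval -2.20 to -0.45), with an unadjusted p of 0.0037 and an adjusted p of 0.12 in limma, so it was not called; without replicate 4 of that group it was -1.61 with an adjusted p of 0.048. The other Thrsp probe sets gave -0.93 and -1.13, and correlated with the brightest at 0.80 and 0.89. At 5 mg/kg phenobarbital the difference was 0.21. Over the remaining groups it lay between -0.40 and 0.40.

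Klf9, a transcription factor gene that the hormone receptor and the glucocorticoid receptor both raise, passed in none of the comparisons. Its brightest probe set was at 9.76, 9.52, 9.51, 9.39 and 9.31 at 50 mg/kg BDE-47, against 9.87, 10.23, 10.02 and 9.94 at 0 mg/kg. The groups did not overlap, and the difference was -0.51, with an unadjusted p of 0.039 and an adjusted p of 0.33 in limma. A fit of only these groups gave an adjusted p of 0.029. With 50 mg/kg DE-71 it was at 9.53, 10.09, 10.17 and 8.94, against 9.25, 10.21, 10.00, 10.78 and 10.01 at 0 mg/kg, a difference of -0.37 with an adjusted p of 0.42. The second Klf9 probe set correlated with the first at 0.15 and differed by -0.29 at 50 mg/kg BDE-47 and -0.02 at 50 mg/kg DE-71, neither of which passed.

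Hr, which encodes the corepressor hairless, a direct hormone target best known from rat brain, averaged 4.20 and ran from 3.37 to 4.69. That is brighter than only 29.5% of probe sets. Its differences lay between -0.24 and 0.18, with a lowest adjusted p of 0.71 in limma. It is the member that a filter on probe sets with a mean under 5 removed.

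**Figure D4:**
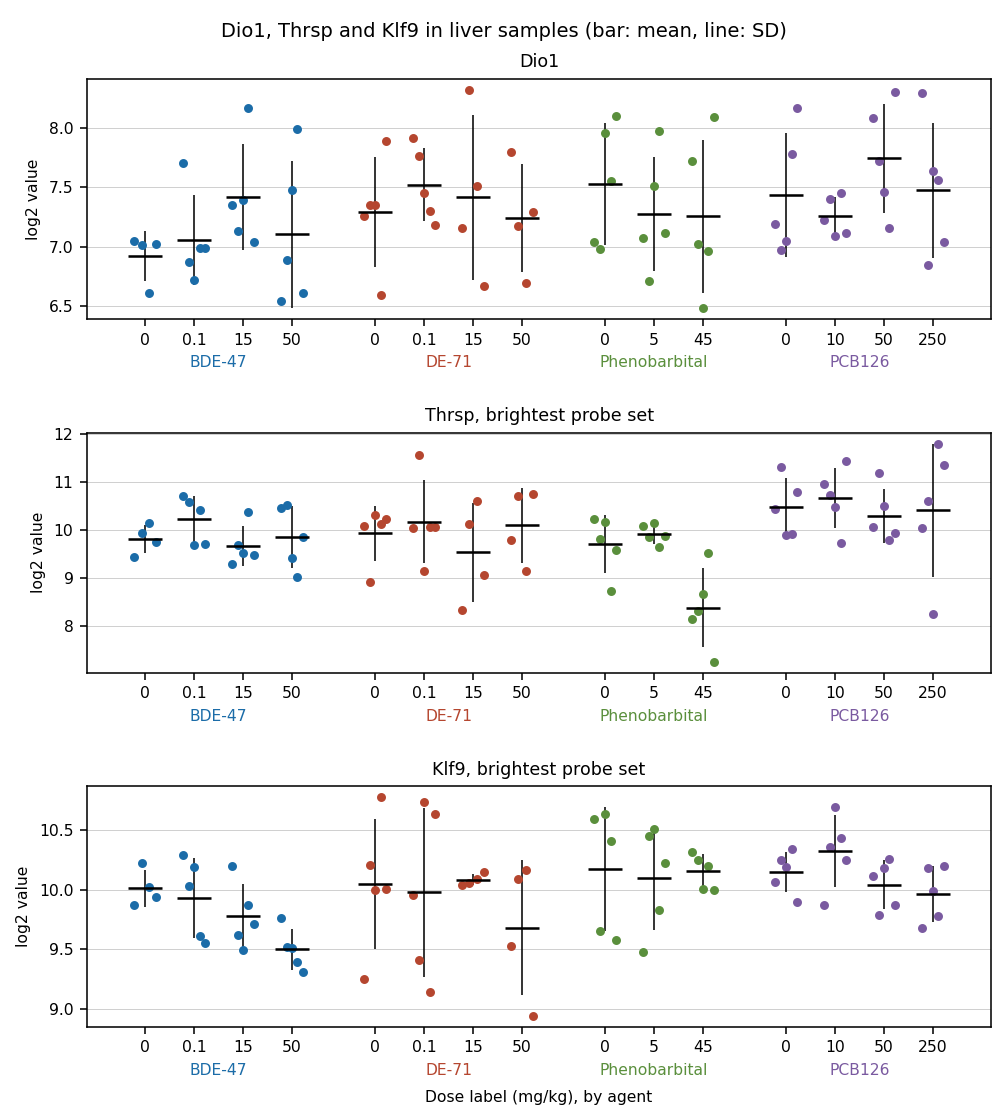
Log2 values of Dio1, Thrsp and Klf9 (brightest probe sets) in each liver sample (points), by agent and dose in mg/kg, with group means (bars) and SD (lines). Dosed and control livers overlap for Dio1 in every pair; Thrsp is lowest at 45 mg/kg phenobarbital (mean 8.39, against 9.71 at 0 mg/kg), and Klf9 at 50 mg/kg BDE-47 lies at 9.31 to 9.76, against 9.87 to 10.23.

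The mixture and the single ether were compared at matched doses as the DE-71 response minus the BDE-47 response, in 3 tests for each gene. Of the 9 members 0 passed at any dose in limma (1, 0 and 0 at an unadjusted p under 0.05), where 0%, 0.0141% and 0.0985% of all genes did at 0.1, 15 and 50 mg/kg. At 50 mg/kg the difference was 0.08 for Me1 (interval -1.04 to 1.20) and -0.12 for Thrb (interval -0.42 to 0.19). For Serpina7 it was -0.83 (interval -2.01 to 0.35, adjusted p = 0.67 in limma), and at 15 mg/kg -0.84 (interval -2.02 to 0.34). These Serpina7 intervals hold both 0 and the size of the fall at 50 mg/kg DE-71. For the second Thra probe set the difference at 50 mg/kg was 0.49 (interval 0.13 to 0.84), with an adjusted p of 0.36. For the second Thrb probe set at 0.1 mg/kg it was 1.01 (interval 0.52 to 1.49), with an unadjusted p of 9.9e-05 and an adjusted p of 0.58. For Dio1, Thrsp, Klf9 and Ttr at 50 mg/kg it was -0.23, 0.12, 0.15 and -0.02.

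Several genes on a list for hormone conjugation and export rose. Of the 14 listed genes 10 were measured, and whether each acts on thyroid hormone in these livers was not tested. In livers given 50 mg/kg DE-71, 5 rose and 1 fell, with a list median of 0.85 (all genes 0.002), where 4.57% of all genes were called higher and 4.76% lower. At 50 mg/kg BDE-47, 6 rose and 0 fell (2.07% and 1.46% of all genes). The 15 mg/kg groups had 5 that rose for DE-71 (0.83% of all genes higher) and 6 for BDE-47 (0.556%). In livers given 45 mg/kg phenobarbital 5 rose and 1 fell (1.28% and 1.13%), at 5 mg/kg phenobarbital 1 rose (0.0703%), and with PCB126 0 passed.

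Sult1e1, a sulfotransferase best known for estrogens that also accepts iodothyronines, rose with both flame retardants. It was at 10.62, 9.54, 7.77 and 9.33 at 50 mg/kg DE-71, against 3.96, 3.83, 3.73, 3.97 and 3.58 at 0 mg/kg, a log2 difference of 5.50 (adjusted p = 4.7e-09 in limma). The groups did not overlap. The controls were near the bottom of the scale, where RMA compresses differences. With 50 mg/kg BDE-47 Sult1e1 differed by 3.27 and at 45 mg/kg phenobarbital by 1.54, and the second of these did not pass. Sult1b1, a sulfotransferase of thyroid hormones, rose by 2.08, 2.27 and 2.23 at 50 mg/kg DE-71, 50 mg/kg BDE-47 and 45 mg/kg phenobarbital.

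Ugt2b1, a glucuronosyltransferase gene, rose by 1.22, 1.02 and 1.38 in these 3 groups and was the only list member to pass at 5 mg/kg phenobarbital (0.96). The export pump genes Abcc2 and Abcc3 rose by 1.13 and 1.75 at 50 mg/kg DE-71, by 1.09 and 1.72 at 50 mg/kg BDE-47 and by 1.13 and 1.26 at 45 mg/kg phenobarbital. Abcb1a rose by 0.98 at 50 mg/kg BDE-47 and by 1.46 at 45 mg/kg phenobarbital. Sult1a1 fell by 0.47 at 50 mg/kg DE-71 and by 0.44 at 45 mg/kg phenobarbital. The Ugt1a glucuronosyltransferase genes share probe sets annotated to several genes and are not analysed here.

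**Figure D5:**
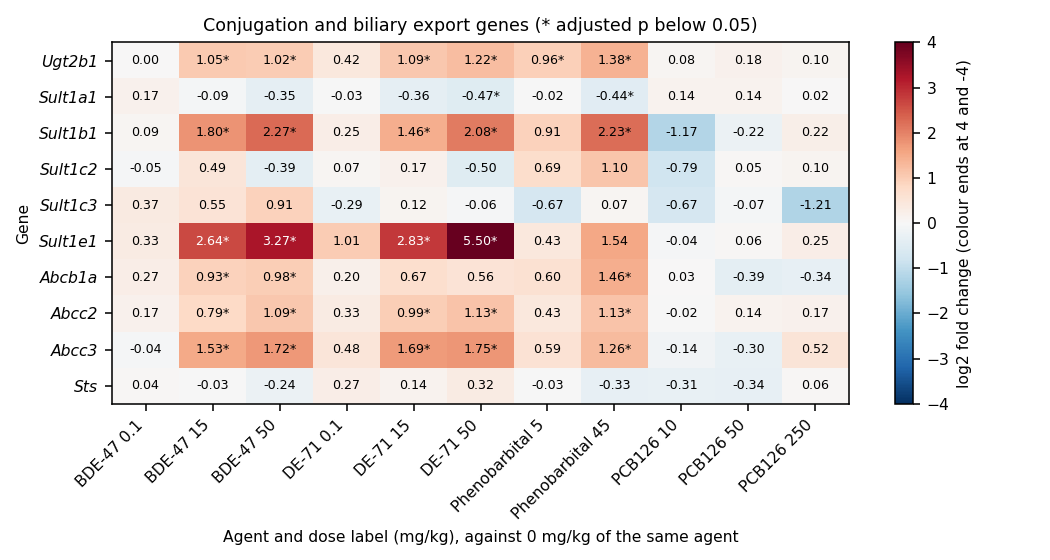
Log2 fold change of the 10 measured conjugation and export genes (rows) at each agent and dose in mg/kg (columns), dose minus 0 mg/kg of the same agent; asterisks mark an adjusted p below 0.05, and the colour scale ends at 4 and -4. The largest value is 5.50 for Sult1e1 at 50 mg/kg DE-71, and no PCB126 column holds an asterisk.

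Calls among uptake genes were seen with DE-71. Of 9 measured transporters of thyroid hormone, 2 rose and 1 fell at 50 mg/kg DE-71 (4.57% and 4.76% of all genes): Slc3a2, the heavy chain of an amino acid carrier, by 0.64, Slco1b2, a liver uptake transporter, by 0.37, and Slc10a1, the bile acid transporter that also takes up iodothyronine sulfates, which fell by 0.37. Slco1b2 and Slc3a2 also rose at 15 mg/kg DE-71, by 0.58 and 0.74 (2 of 9, where 0.83% of all genes were higher), and 0 of the 9 passed in the other groups. Of 7 measured genes of other deiodinases and serum or cell binding, only Aldh1a1 passed, an aldehyde dehydrogenase gene that rose by 1.40 at 50 mg/kg DE-71, 1.88 at 50 mg/kg BDE-47 and 1.28 at 45 mg/kg phenobarbital. That was 1 of 7 in each, where 4.57%, 2.07% and 1.28% of all genes were higher. At 15 mg/kg of DE-71 and of BDE-47, 1 of the 7 also rose (0.83% and 0.556% of all genes). Of 15 measured receptor partners and coregulators, 2 fell at 50 mg/kg DE-71 (4.76% of all genes), the coactivator subunit gene Med1 by 0.38 and the corepressor subunit gene Tbl1x by 0.47, and 0 passed in any other group. The receptor partner genes Rxra and Rxrb differed by 0.06 and -0.20 there.

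The calls among other genes listed as raised by the hormone in liver were all falls. Whether the hormone raises each of them in these livers, Srebf1 and Scd among them, was not tested. Of 10 measured lipogenic genes other than Me1 and Thrsp, 2 fell at 50 mg/kg DE-71 (4.76% of all genes): Srebf1, a transcription factor of fatty acid synthesis, by 1.01 (adjusted p = 0.0033 in limma) and Mid1ip1, a relative of Thrsp, by 0.85 (adjusted p = 0.027). At 45 mg/kg phenobarbital 2 of the 10 fell (1.13% of all genes): Scd, a fatty acid desaturase gene, by 3.02 (adjusted p = 0.0082) and Srebf1 by 0.87. Scd also differed by -2.43 and -2.28 at 15 and 50 mg/kg BDE-47 and by -2.10 and -1.53 at 15 and 50 mg/kg DE-71, none of which passed (adjusted p = 0.15, 0.087, 0.27 and 0.23 in limma). It was at 5.33 to 6.82 at 15 mg/kg BDE-47 and 5.38 to 7.27 at 50 mg/kg, below the 7.63 to 9.64 of the BDE-47 controls without overlap, while the DE-71 groups overlapped theirs. Srebf1 was at 8.10, 9.15, 8.99 and 9.43 at 50 mg/kg DE-71, against 10.63, 9.49, 9.34, 9.86 and 10.32 at 0 mg/kg; 3 of the dosed livers were below every control. Fasn, the fatty acid synthase gene, differed by -0.39, 0.19 and 0.16 at 50 mg/kg DE-71, 50 mg/kg BDE-47 and 45 mg/kg phenobarbital, and did not pass. The list medians there were -0.25, 0.14 and -0.05.

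Of 14 measured other liver genes listed as raised by the hormone, Slc2a2, the liver glucose transporter gene, fell at 50 mg/kg of DE-71 (by 0.51) and of BDE-47 (by 0.47). That was 1 of 14 in each, where 4.76% and 1.46% of all genes were lower. With 45 mg/kg phenobarbital 2 of the 14 fell (1.13% of all genes): Cyp7a1, the first enzyme of bile acid synthesis from cholesterol, by 2.31, and Igfals, which encodes a serum partner of insulin-like growth factors, by 0.93. The list medians were -0.12, -0.08 and -0.20 at 50 mg/kg DE-71, 50 mg/kg BDE-47 and 45 mg/kg phenobarbital. In the other 8 dosed groups 0 of these 24 genes passed.

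Since Me1 is also a target of NRF2, the transcription factor of the oxidative stress response, other NRF2 targets were set beside it. Of 16 measured, 4 rose at 15 mg/kg DE-71 and 10 at 50 mg/kg, where 0.83% and 4.57% of all genes were higher. With BDE-47, 2 rose at 15 mg/kg and 4 at 50 mg/kg (0.556% and 2.07%), with 45 mg/kg phenobarbital 3 (1.28%) and with 250 mg/kg PCB126 1 (0.0422%), and 0 fell in these groups. Gsta4, a glutathione transferase gene, rose by 1.39, 0.73 and 0.75 at 50 mg/kg DE-71, 50 mg/kg BDE-47 and 45 mg/kg phenobarbital, and Ephx1, the microsomal epoxide hydrolase gene, by 1.74, 1.52 and 1.36. Nqo1, an NADPH quinone reductase gene, rose by 1.55 at 50 mg/kg DE-71 and differed by 0.08 at 50 mg/kg BDE-47, which did not pass. Abcc3 is in this list and in the export list. The part of NRF2 in the Me1 rise was not tested, nor was that of CAR or the aryl hydrocarbon receptor.

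The members' likeness to each other was taken over the 72 samples, with each agent's mean subtracted. The correlations farthest from 0 were 0.61 between Thrb and Klf9, 0.55 between Ttr and Thrsp, and -0.50 between Serpina7 and Me1. Me1 and Thrsp, both lipogenic, correlated at -0.15. These are descriptions over samples that share doses.

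Among 9545 genes with a mean of at least 5, the genes most like Me1 were Pir (r = 0.89), Akr7a3 (0.85) and Gsta3 (0.84), and without the 2 samples farthest from the median the values were 0.89, 0.83 and 0.83. Those most like Serpina7 were Fabp7 (0.79), Spmip11 (0.76) and Qpct (0.74), at 0.74, 0.75 and 0.74 without those samples. Those most like Thrb were Pdzrn3 (0.79), Mef2a (0.75) and Sp1 (0.74), at 0.72, 0.68 and 0.67. Akr7a3, an aldehyde reductase gene of the NRF2 list, rose by 2.79 at 50 mg/kg DE-71 and by 2.22 at 15 mg/kg DE-71, and differed by 1.52 at 50 mg/kg BDE-47, which did not pass.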

How the data were processed

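The authors deposited a table of log2 expression values for 74 rat liver arrays, made with RMA per the submitters' processing notes; scanner files, and whether the agents were normalized together, are not given in the sources used here. RMA corrects background, equalizes the distributions of arrays normalized together and compresses the differences of dim probe sets. Of 31099 probe sets, 57 controls, 436 annotated to several genes and 9780 unnamed here were left out. Of the samples, 2 pairs of near-identical arrays of 1 group were averaged (root mean square difference under 0.3 over 300 genes). limma 3.58.1 in R 4.3.3 was fitted to 20826 probe sets in 72 samples with 15 group means and 57 residual degrees of freedom. Each dose was compared with 0 mg/kg of its own agent, with Benjamini-Hochberg adjustment within each of 11 comparisons and 3 differences between DE-71 and BDE-47. The brightest probe set stood for a gene. The text names every member, up to 4 called genes of each list by lowest adjusted p, and the 3 genes most like each called member. Sult1b1, Abcc2, Sult1a1, Nqo1, Cd163, Alb, Dio2, Dio3, Rxra, Rxrb and Fasn are named outside this rule, after their values were seen. The members and lists were chosen with earlier results of these data known. The number of arrays limits the precision. The fit was tested on simulated data. Alternatives were a dim filter, all 74 arrays, renormalization, other variance estimates, only the groups compared, a replicate block, no near-identical arrays and leaving out each sample.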

Additional observations from a re-analysis of the deposited data

Results flagged for a closer look

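In 4 of 135 pairs of a gene and a group, 1 sample lay far from the others by Dixon's test, which by chance picks out about 1 in 20 groups. Dio1 was at 6.61 in the averaged BDE-47 0 mg/kg replicates 3 and 4, against 7.01 to 7.05 in the other samples of that group. Dio1 was at 7.70 in BDE-47 0.1 mg/kg replicate 1, against 6.72 to 6.99. Thrsp was at 8.92 in DE-71 0 mg/kg replicate 2, against 10.09 to 10.31. Thrb was at 8.89 in DE-71 15 mg/kg replicate 3, against 8.80 in each of the others. In 0 cases did a member's response differ between DE-71 and BDE-47 in limma.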

How the results depend on the processing

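The number of the 9 genes called depended on the settings as follows. With only the arrays of the groups compared, it was 1 at 15 mg/kg BDE-47, 2 at 50 mg/kg BDE-47, 0 at 15 mg/kg DE-71 and 1 at 50 mg/kg DE-71. With all 74 arrays as separate samples it was 1 at 15 mg/kg BDE-47, and with a gene called on any of its probe sets 2 at 50 mg/kg BDE-47, where Thra was added. At 15 mg/kg DE-71 it was 0 after a further quantile normalization, with trend and robust variance estimates, with the replicate block and without the near-identical arrays of different doses. At 45 mg/kg phenobarbital it was 0 with the replicate block. Leaving out 1 sample gave 0 to 1 at 15 mg/kg DE-71, 1 to 3 at 50 mg/kg DE-71 (1 without DE-71 50 mg/kg replicate 5), 0 to 2 at 45 mg/kg phenobarbital (2 without phenobarbital 45 mg/kg replicate 4), 1 at 50 mg/kg BDE-47, and 0 elsewhere. The cause of these changes was not tested, and some of those fits also held fewer samples. No direction of a called value was reversed. Replicate numbers were not taken to pair the samples. In no comparison did every same-numbered pair correlate above 0.1. With 50 and 250 mg/kg PCB126, the nearest, 4 of 5 did and 3 of 5 samples correlated best with their own number. These correlations cannot tell whether some of the samples are paired. Dim probe sets, such as those of Hr and Thra, limit what can be seen of those genes.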
